A study of Mus musculus with 6 samples.

Results

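The genes of the p53 pathway were followed in primary mouse myoblasts in which an active form of beta-catenin was induced, and in uninduced controls. The set held 34 genes listed by name: p53 itself, its inhibitors and feedback regulators, and its known target genes. A gene was measured here if its symbol named a row of the deposited table, and 31 of the 34 did, out of 23279 named genes. Trp53, Bax and Gdf15 were not analysed here, so the level of the p53 transcript is not given. The genes were read as a check on damage by the recombinase or the drug.

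Myoblasts, the dividing precursors of skeletal muscle fibres, came from limb muscle of C57bl6N mice with 2 alleles: Pax7-CreERT2, a tamoxifen-inducible Cre recombinase driven by the muscle stem cell gene Pax7, and a beta-catenin gene with loxP sites around exon 3 on 1 chromosome. Without that exon the protein lacks the residues whose phosphorylation leads to its breakdown. The 3 activated cultures received 4-OH tamoxifen in ethanol, and the 3 control cultures, which carried the same alleles, received ethanol. All cultures had grown for 5 passages in medium with 20% FBS and 2 ng/ml bFGF and had then spent 24 hours in 2% HS to differentiate. The labels call the cultures independent, with no word on the animals behind them, and each p-value rests on culture-to-culture spread alone. No group received 4-OH tamoxifen without the loxP allele, so the drug, the recombinase and active beta-catenin cannot be told apart in any difference given here.

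The protein p53 is a transcription factor that is kept scarce by Mdm2 and Mdm4 and accumulates when DNA is damaged or cells are stressed. It binds pairs of a short decamer motif and switches on genes that halt the cell cycle, repair DNA, adjust metabolism or start apoptosis, and it switches on Mdm2, which limits its own activity. Its best known arrest target, Cdkn1a, is also switched on when muscle precursors leave the cell cycle to differentiate, and this does not need p53.

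Values are log2 expression per gene, where a difference of 1 is a doubling. The 6 arrays had medians of 4.04 to 4.36 and SDs over probe sets of 1.72 to 2.12. Array pairs correlated at 0.948 to 0.959 within the activated group, at 0.892 to 0.949 within the control group and at 0.862 to 0.962 between the groups. Axin2, a feedback target of beta-catenin, was at 5.50, 5.85 and 6.54 in activated replicates 1, 2 and 3, against 4.55, 3.81 and 4.58 in control replicates (limma, adjusted p = 0.29). Ctnnb1 differed by 0.02 ± 0.31 (SE), and by -0.35 after quantile normalization, but where its probes lie was not examined, so this value does not show whether exon 3 was lost. The 10 myoblast markers (7 higher) had list means on single arrays of 7.51 to 8.18 in activated and 7.13 to 7.89 in control cultures. These markers went both ways: at an unadjusted p under 0.05 (limma) 4 were higher and 2 lower, against 4.44% and 3.42% of all genes. Markers of other cell types had list means near or below the array medians: the mean on single arrays was 3.86 to 4.19 in activated and 4.08 to 4.31 in control cultures for 9 fibroblast genes (2 higher), 3.06 to 3.32 in activated and 3.32 to 3.61 in control cultures for 8 endothelial genes (1 higher), and 3.77 to 4.11 in activated and 3.99 to 4.59 in control cultures for 8 leukocyte genes (1 higher). Of the 8 leukocyte genes 7 were lower, 4 of them with every activated array below every control array (7.4% of all genes were). Their mean on control replicate 3, 4.59, was above that array's median of 4.33. Ptprc, the CD45 gene, is 1 of the 8 leukocyte genes and was chosen after its values were seen. Unlike the 4 genes just counted, it overlapped between the groups, at 2.38 to 2.75 in activated and 2.36 to 2.55 in control cultures. It was below every array's median, and the log2 scale has no true 0. The part of these cell types in the differences given here was not tested. In RNA of whole cultures, fewer cells of a type and less RNA per cell cannot be told apart.

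No p53 pathway gene passed an adjusted p of 0.05 (limma, 0 of 31 members and 0 of 23279 genes, which is 0% of all genes). Before adjustment, 7 of the 31 had a p under 0.05 and all 7 were higher in activated cultures: Fas, Eda2r, Plk2, Gadd45a, Sesn1, Phlda3 and Cd82. That was 22.6% of the members, against 4.44% of all genes that were higher at this level. No member was lower at this level, against 3.42% of all genes, and 7.86% of all genes were past it in either direction. The median log2 difference was 0.23 over the 31 members and -0.08 over all genes (0.16 and -0.01 after quantile normalization), and 21 of 31 members (67.7%) were above 0, against 40.3% of all genes. Part of this gap went with expression level. With dim genes (mean under the median of all genes) left out, the median was 0.23 over 27 members and 0.12 over 11640 genes. In that fit 4 of the 27 members were higher at an unadjusted p under 0.05 (limma, 14.8%), against 6.63% of the genes kept. The members' median was 0.086 without control replicate 3, 0.13 without activated replicate 3 and 0.43 without control replicate 2. The largest difference among the members as deposited, that of Phlda3, was 2.88-fold. After quantile normalization and after cyclic loess, the differences of Fas and Sesn1 were larger than that of Phlda3.

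Separation of the arrays gave a like count. In 7 members every activated array exceeded every control array (Mdm2, Fas, Eda2r, Plk2, Gadd45a, Sesn1 and Cd82), or 22.6% against 5.4% of all genes. In 1 member, Mdm4, every activated array lay below every control array, or 3.23% against 7.4% of all genes. Over both directions the groups did not overlap in 12.8% of all genes. Arrays of the same replicate number deviated together, and with that number as a block 10 members were higher at an unadjusted p under 0.05 (32.3%, against 9.63% of all genes) and 1 was lower (against 7.01%, and 16.6% of all genes in either direction). Those added by the block were Btg2, Aen, Ei24 and Mdm2 on the higher side and Mdm4 on the lower, while Cd82 dropped out. With the block after quantile normalization, 7 members were higher and 3 lower (Mdm4, Gtse1 and Polk), against 7.05% and 6.7% of all genes, and Aen, Ei24 and Mdm2 were no longer counted. The block gave 31 genes an adjusted p under 0.05 (limma, 0.133% of all genes), none of them a member, and 0 genes after quantile normalization. With the block on the deposited values, the smallest adjusted p among the members was 0.0816, that of Gadd45a.

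**Figure D1:**
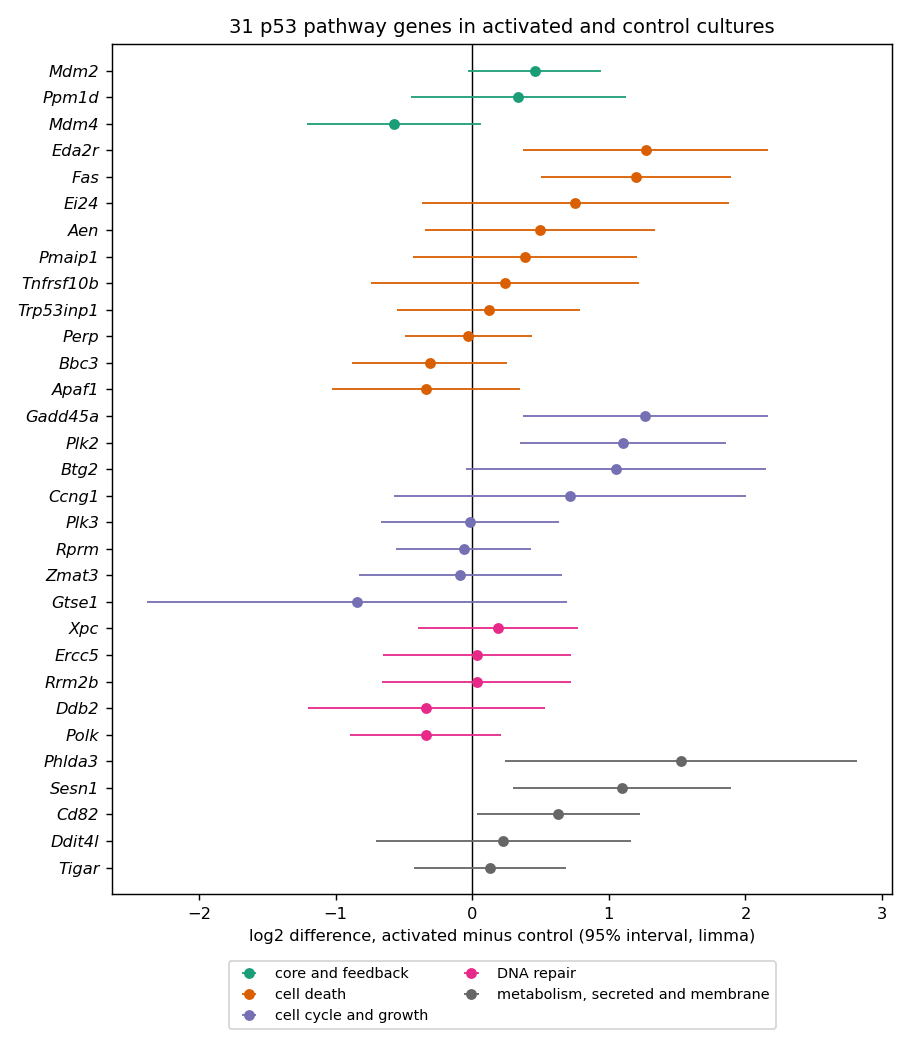
Log2 difference between activated and control cultures (x axis, activated minus control, point) with limma's 95% interval (bar) for the 31 measured p53 pathway genes (y axis), coloured by role. The intervals of Fas, Eda2r, Gadd45a, Plk2, Sesn1, Phlda3 and Cd82 lie above 0, none lies wholly below 0, and the 5 DNA repair genes have points between -0.34 and 0.19.

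Sequence near the start sites is shown because direct targets of p53 are known for such sites. The genes were listed by name, and many were established as targets through p53 binding, so the motif is no independent check of the list. RefSeq promoter windows (GRCm38.p6), which run from 250 bases before to 50 after an annotated start, were found for 23 of the 31 measured members (33 windows). The p53 decamer half-site, a pair of which makes a full binding site, was searched by its consensus on both strands. It occurred in 10 of 23 members (43.5%), against 1523 of 17519 genes on the array with a window (8.69%) and 760 of 9150 such genes with at least the median expression (8.31%), and in 8.36% of all 32851 windows. Member windows had a median GC content of 64.7%, against 56.7% for genes on the array, and the share was not adjusted for this or for the number of windows a gene has. The 10 matches are printed 5′ to 3′ on the gene's strand with the half-site in capitals and 10 bases on each side.
Mdm2 (chr10:117710925-117710954, minus strand): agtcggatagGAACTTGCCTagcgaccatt
Ppm1d (chr11:85311112-85311141, plus strand): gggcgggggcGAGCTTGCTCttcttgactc
Aen (chr7:78895927-78895956, plus strand): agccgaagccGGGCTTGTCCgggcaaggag
Ei24 (chr9:36797325-36797354, minus strand): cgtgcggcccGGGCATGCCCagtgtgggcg
Ccng1 (chr11:40755452-40755481, minus strand): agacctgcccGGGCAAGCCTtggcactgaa
Gadd45a (chr6:67037428-67037457, minus strand): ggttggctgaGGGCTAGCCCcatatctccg
Polk (chr13:96519399-96519428, minus strand): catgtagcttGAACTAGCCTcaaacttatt
Sesn1 (chr10:41887256-41887285, plus strand): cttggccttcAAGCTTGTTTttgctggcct
Ddit4l (chr3:137623572-137623601, plus strand): caactcccagGGGCTTGCCTgggcccctgc
Gtse1 (chr15:85859945-85859974, plus strand): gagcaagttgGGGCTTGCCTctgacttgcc

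Of these 10 genes, Mdm2, Gadd45a and Sesn1 were among the 8 whose groups did not overlap, while Ccng1, Ei24, Aen, Ppm1d, Ddit4l, Polk and Gtse1 overlapped between the groups. Fas, Eda2r, Plk2, Phlda3, Cd82 and Mdm4 had windows without the half-site. A half-site match is a description of letters and not evidence of binding, and sites outside the windows, such as those in introns, were not searched. The 250 bases before the start are shown for the 3 genes with both features, and for Gtse1, a cell cycle gene. Capitals mark half-sites, the cell cycle motif TTTGAA or TTTAAA, and CCAAT, the letters bound by NF-Y, or their reverse complements.
Mdm2 (chr10:117710759-117711008, minus strand): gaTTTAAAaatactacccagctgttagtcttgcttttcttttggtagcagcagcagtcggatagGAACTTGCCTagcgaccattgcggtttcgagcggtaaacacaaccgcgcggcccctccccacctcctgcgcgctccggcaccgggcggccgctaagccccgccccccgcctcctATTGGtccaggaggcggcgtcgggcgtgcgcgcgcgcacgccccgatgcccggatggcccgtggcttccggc
Gadd45a (chr6:67037408-67037657, minus strand): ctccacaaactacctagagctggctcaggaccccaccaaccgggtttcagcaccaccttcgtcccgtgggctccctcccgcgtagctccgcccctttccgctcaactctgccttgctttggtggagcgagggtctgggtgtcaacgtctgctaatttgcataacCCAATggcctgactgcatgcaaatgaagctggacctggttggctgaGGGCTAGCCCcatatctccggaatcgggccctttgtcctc
Sesn1 (chr10:41887189-41887438, plus strand): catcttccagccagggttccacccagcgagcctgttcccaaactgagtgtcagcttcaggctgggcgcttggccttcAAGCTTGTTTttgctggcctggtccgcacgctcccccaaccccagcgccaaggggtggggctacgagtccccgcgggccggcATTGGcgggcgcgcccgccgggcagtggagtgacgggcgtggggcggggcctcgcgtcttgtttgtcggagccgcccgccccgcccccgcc
Gtse1 (chr15:85859457-85859706, plus strand): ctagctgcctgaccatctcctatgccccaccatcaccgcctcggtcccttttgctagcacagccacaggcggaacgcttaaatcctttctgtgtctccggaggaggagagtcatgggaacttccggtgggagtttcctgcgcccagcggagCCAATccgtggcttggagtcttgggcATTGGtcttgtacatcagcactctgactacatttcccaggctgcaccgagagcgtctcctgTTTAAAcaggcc

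Counted from the start, with -1 the base before it, the half-site of Gadd45a lies at -40 to -31, that of Mdm2 at -186 to -177 and that of Sesn1 at -173 to -164. The Gtse1 window that is shown holds TTTAAA at -12 to -7, CCAAT at -99 to -95 and its reverse complement at -73 to -69. The half-site of Gtse1 lies in its other window, after the start there. Sesn1 also has another window, which holds no half-site. TTTGAA or TTTAAA occurred in 8 of 23 members (34.8%) and in 27.4% of genes on the array with a window, and CCAAT in 13 of 23 (56.5%) and in 41.9%. The motifs printed in capitals do not overlap each other.

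The differences of the p53 inhibitors Mdm2 and Mdm4 had opposite signs. Their intervals, -0.03 to 0.94 and -1.21 to 0.06, each included 0. Mdm2 (Entrez 17246), the ubiquitin ligase that marks p53 for degradation, was at 8.56, 8.63 and 8.73 in activated replicates 1, 2 and 3, against 8.05, 8.13 and 8.38 in control replicates. Mdm4 (Entrez 17248), a relative of Mdm2 that binds p53 and blocks its activity, was at 7.36, 7.42 and 7.55 in activated replicates, against 7.81, 7.72 and 8.53 in control replicates. For each of these genes the groups did not overlap, Mdm2 being higher and Mdm4 lower on every activated array. Their log2 differences were 0.46 ± 0.21 (SE; limma, adjusted p = 0.648) for Mdm2 and -0.58 ± 0.27 (0.661) for Mdm4. Both values depended on the scaling: after quantile normalization Mdm2 was at 0.12 and Mdm4 at -0.88, after cyclic loess at 0.06 and -0.91, and after median centring at 0.58 and -0.45. Without control replicate 3 the Mdm4 difference was -0.32. Ppm1d (Entrez 53892), the phosphatase Wip1 that returns p53 and the damage kinases to their resting state, was at 6.06, 6.19 and 6.74 in activated replicates, against 5.92, 6.57 and 5.49 in control replicates. The groups of Ppm1d overlapped, and its difference of 0.34 had an interval of -0.45 to 1.12.

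Of the 10 measured cell death genes 7 were above 0, and the larger differences were those of the receptors Fas and Eda2r. Fas (Entrez 14102), the receptor that starts apoptosis at the cell surface, was at 4.66, 5.27 and 4.29 in activated replicates 1, 2 and 3, against 3.69, 3.62 and 3.31 in control replicates. The lowest activated array lay above the highest control array, and the difference of 1.2 ± 0.30 (SE) corresponds to 2.30-fold (limma, adjusted p = 0.355, and 0.0991 with the block). All 3 control values were below the median of their array. Eda2r (Entrez 245527), a receptor of the same family that binds ectodysplasin A2, was at 8.23, 8.48 and 7.11 in activated replicates, against 6.85, 6.82 and 6.34 in control replicates. Its groups did not overlap either, with activated replicate 3 closest to the controls, and the difference was 1.27 ± 0.38 (SE), or 2.41-fold (limma, adjusted p = 0.451). That difference was 1.02 after quantile normalization and 0.98 after cyclic loess. In the blocked fit without the arrays numbered 3, Eda2r had an adjusted p of 0.038, and 501 genes passed there. The TRAIL receptor Tnfrsf10b overlapped widely, at 5.81 to 6.87 in activated and 5.39 to 6.80 in control cultures, and its difference of 0.24 turned to -0.11 without control replicate 3.

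The remaining cell death genes had differences of either sign, from -0.34 (Apaf1) to 0.75 (Ei24), and each interval included 0. Pmaip1, the BH3-only protein Noxa, was at 6.64, 6.14 and 5.58 in activated replicates, against 6.05, 5.92 and 5.24 in control replicates. Bbc3, the BH3-only protein Puma and a potent p53-induced killer, was dim, with a mean under the median of all genes. It was at 4.11, 3.96 and 4.30 in activated replicates, against 4.78, 4.20 and 4.33 in control replicates. In the numbered pairs Pmaip1 was thus higher in 3 of 3 and Bbc3 lower in 3 of 3, but on each gene the groups overlapped, with differences of 0.39 (interval -0.43 to 1.203) and -0.31 (-0.88 to 0.26). Apaf1, the scaffold of the apoptosome, differed by -0.34 ± 0.29 (SE) and the apoptosis-enhancing nuclease Aen by 0.50 ± 0.36. Single arrays moved these values: Apaf1 was at -0.13 without activated replicate 2, Aen at 0.19 without control replicate 1 and Pmaip1 at 0.12 without activated replicate 1. Ei24, a membrane protein of the endoplasmic reticulum, differed by 0.75 ± 0.48, and by 0.25 without control replicate 3, the lowest array for this gene at 5.51. Trp53inp1, a cofactor of p53 in stress responses, differed by 0.12 ± 0.29 and the membrane protein Perp, dim on every array at 3.18 to 3.43, by -0.03 ± 0.20.

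The stress and growth arrest genes held 3 of the larger differences. Gadd45a (Entrez 13197), a stress-induced protein that acts on growth arrest and repair, was at 9.28, 10.44 and 9.67 in activated replicates 1, 2 and 3, against 8.33, 9.11 and 8.15 in control replicates. Plk2 (Entrez 20620), a polo-like kinase induced by p53 and by serum, was at 8.63, 8.65 and 7.997 in activated replicates, against 7.53, 7.67 and 6.76 in control replicates. Each activated array was above each control array for both genes, with 2.41-fold for Gadd45a (limma, adjusted p = 0.457) and 2.15-fold for Plk2 (0.433). Both differences were smaller after rescaling. Gadd45a differed by 1.27 as deposited, 0.90 after quantile normalization and 0.80 after cyclic loess, and Plk2 by 1.10, 0.82 and 0.76. Btg2 (Entrez 12227), an antiproliferative protein that promotes mRNA deadenylation, was at 7.28, 8.31 and 7.39 in activated replicates, against 6.75, 7.36 and 5.71 in control replicates. Activated replicate 1 fell below control replicate 2, so the groups of Btg2 overlapped, and its difference of 1.05 ± 0.47 (SE) was 0.60 without control replicate 3. Btg2 differed by 0.81 after quantile normalization and by 0.78 after cyclic loess.

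Cyclin G1, encoded by the p53 target Ccng1 (Entrez 12450), was at 10.32, 10.71 and 10.39 in activated replicates, against 10.09, 10.76 and 8.43 in control replicates. Its difference of 0.71 was 0.05 without control replicate 3, 0.30 after quantile normalization and 0.18 after cyclic loess. Gtse1 (Entrez 29870), a microtubule protein of dividing cells that moves p53 out of the nucleus, was at 5.35, 5.57 and 6.55 in activated replicates, against 5.14, 7.25 and 7.61 in control replicates. Gtse1 was therefore lower in pairs 2 and 3 and not in pair 1, its difference being -0.84 ± 0.66 (SE), -1.605 without control replicate 1 and -0.37 without control replicate 3. The cell cycle list had 32 of 34 genes lower in activated cultures, a median difference of -1.24 and list means on single arrays of 5.35 to 6.45 in activated and 6.82 to 7.61 in control cultures; its part in the Gtse1 values was not tested. The growth regulators that remain were close to 0, namely the kinase Plk3 at -0.02 ± 0.28, the arrest protein Rprm at -0.06 ± 0.21 and the RNA-binding protein Zmat3 at -0.09 ± 0.32 (SE).

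**Figure D2:**
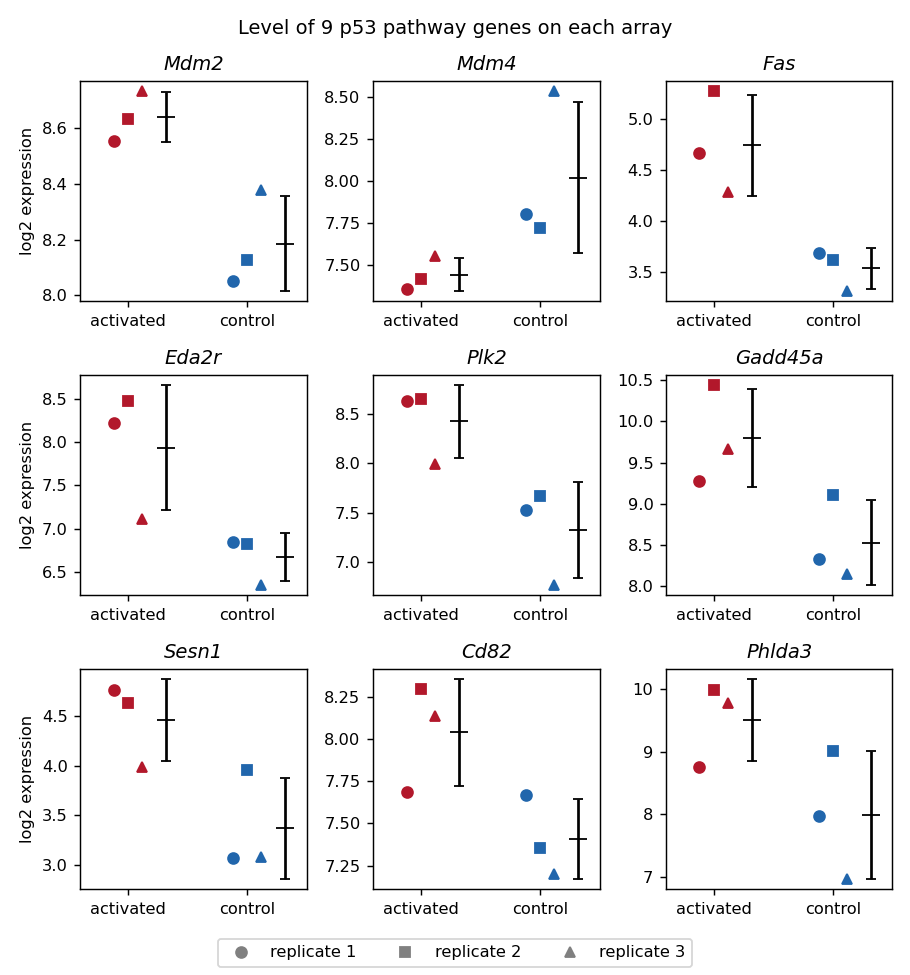
Log2 expression (y axes, one scale per gene) of the 8 p53 pathway genes whose groups did not overlap, and of Phlda3, on each activated (red, left) and control (blue, right) array; marker shape gives the replicate number, and black bars give the mean and SD of 3 arrays. Mdm4 is the gene with lower activated values, Cd82 has activated replicate 1 at 7.69 next to control replicate 1 at 7.67, and Phlda3 overlaps through activated replicate 1 at 8.76 and control replicate 2 at 9.01.

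The 5 DNA repair genes overlapped between the groups, with 3 above 0 as deposited and 1 after quantile normalization. Xpc, which recognises damaged DNA in nucleotide excision repair, was at 4.52 to 4.78 in activated and 4.20 to 4.89 in control cultures. Ddb2, which recognises ultraviolet lesions in the same pathway, was at 4.67 to 4.99 in activated and 4.38 to 5.82 in control cultures. Ercc5, the nuclease that cuts beside the lesion, was at 6.44 to 6.66 in activated and 5.97 to 6.97 in control cultures. For these genes the activated values lay inside the control range. Polk, a polymerase that copies past damaged bases, was at 6.75, 6.76 and 7.02 in activated replicates, against 7.04, 6.99 and 7.51 in control replicates, and was lower in 3 of 3 pairs. Its difference of -0.34 ± 0.24 (SE) was -0.61 after quantile normalization. Rrm2b, the p53-inducible subunit of ribonucleotide reductase, was at 6.10 to 6.40 in activated and 5.83 to 6.78 in control cultures. The intervals of the 5 differences ran from as low as -1.203 (Ddb2) to as high as 0.77 (Xpc), and each included 0. With 3 arrays per group, differences inside a gene's own interval were not excluded for that gene.

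Genes of signalling, metabolism and the cell surface had a median difference of 0.63 over 5 measured genes, all 5 above 0. The median was 0.34 after quantile normalization, 0.30 after cyclic loess and 0.43 over the members that are not dim. Phlda3 (Entrez 27280), which competes with the kinase Akt for membrane lipids and so restrains it, was at 8.76, 9.996 and 9.78 in activated replicates 1, 2 and 3, against 7.97, 9.01 and 6.97 in control replicates. It was higher in 3 of 3 pairs but unevenly, by 0.79, 0.98 and 2.81, and control replicate 2 lay above activated replicate 1. The difference of 1.53 ± 0.55 (SE; limma, adjusted p = 0.561) was 1.02 without control replicate 3. Sesn1 (Entrez 140742), a sestrin that restrains mTORC1, was at 4.77, 4.63 and 3.99 in activated replicates, against 3.07, 3.96 and 3.08 in control replicates. The groups nearly touched, with activated replicate 3 just above control replicate 2, and the difference was 1.10 ± 0.34 (limma, adjusted p = 0.473). All 3 control values of Sesn1 and that of activated replicate 3 were below the median of their array. Cd82 (Entrez 12521), a tetraspanin of the cell surface, was at 7.69, 8.30 and 8.14 in activated replicates, against 7.67, 7.36 and 7.20 in control replicates. In pair 1 Cd82 differed by 0.02, and its overall difference of 0.63 ± 0.25 (limma, adjusted p = 0.615) was 0.34 after quantile normalization. Ddit4l, an inhibitor of mTORC1, was at 6.16 to 6.42 in activated cultures, inside the control range of 5.45 to 6.997. Tigar, which lowers glycolytic flux, was at 4.94 to 5.07 in activated and 4.56 to 5.20 in control cultures.

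Within the numbered pairs, 12 members were higher in all 3 (16.6% of all genes were) and 3 were lower in all 3, namely Mdm4, Bbc3 and Polk (25% of all genes were). The median difference of the members was 0.22 in pair 1, -0.06 in pair 2 and 0.39 in pair 3, and 22, 14 and 22 of the 31 were higher. The mean log2 level of the 31 genes was 6.44, 6.67 and 6.58 in activated replicates 1, 2 and 3, against 6.14, 6.51 and 6.05 in control replicates. Control replicate 2 thus stood above the other control arrays on this mean and activated replicate 1 below it. Members higher in every pair with a difference of at least 0.67 in each were Eda2r, Fas, Plk2, Gadd45a, Phlda3 and Sesn1. Control replicate 3 held the lowest control value of 16 of the 31 genes, Ccng1, Ei24, Btg2 and Phlda3 among them, and the highest of 10, Mdm4, Gtse1, Ddb2 and Polk among them.

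**Figure D3:**
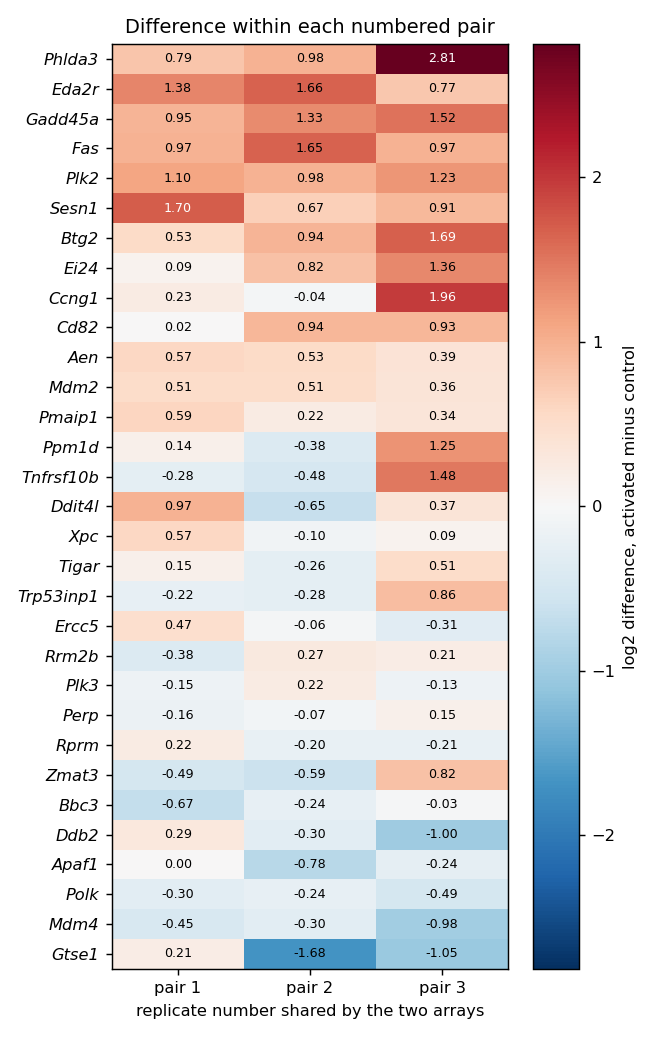
Log2 difference, activated minus control, within each pair of arrays that share a replicate number (columns) for the 31 measured p53 pathway genes (rows, ordered by their mean difference); red is higher and blue lower in the activated array. The top 6 rows by size are red in each pair, while Ccng1 (1.96), Tnfrsf10b (1.48) and Ppm1d (1.25) are high in pair 3 alone of the 3 pairs.

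Other genes of the pathway were taken from lists that overlap the members in no gene. Of 38 further p53 targets 22 were higher and 16 lower, with a median difference of 0.10 that was -0.01 after quantile normalization. At an unadjusted p under 0.05, 5 were higher (13.2%, against 4.44% of all genes) and 2 lower (5.26%, against 3.42%), and none passed after adjustment (limma, smallest adjusted p = 0.319). With the replicate block 8 were higher and 4 lower at this level (limma), against 9.63% and 7.01% of all genes. By separation this list was near all genes. Every activated array lay above every control array in 2 of the 38 (5.26%, against 5.4%) and below in 3 (7.4% of all genes were). Cdkn1a (Entrez 12575), the cyclin-dependent kinase inhibitor p21 through which p53 arrests the cycle, was at 10.01, 12.41 and 11.76 in activated replicates 1, 2 and 3, against 9.42, 9.77 and 8.28 in control replicates. Every activated array was above every control array for Cdkn1a, and the difference of 2.23 ± 0.65 (SE), or 4.70-fold, was uneven over the pairs at 0.59, 2.63 and 3.48 (limma, adjusted p = 0.432). The transcription factor Bhlhe40 differed by 2.10 ± 0.48 and the spindle protein Ckap2 by -1.77 ± 0.43 (SE). Ckap2 is a gene of dividing cells, as is Gtse1 among the members.

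Upstream of p53, 9 of 18 damage kinases, adaptors and ubiquitin ligases were higher and 9 lower, with a median of -0.05. This balance depended on the scaling, with 6 of 18 higher after quantile normalization (median -0.23) and after cyclic loess (-0.28), and 12 of 18 after median centring (0.07). Hipk2, a kinase that phosphorylates p53, was at 7.49, 7.60 and 7.71 in activated replicates, against 5.84, 6.58 and 6.90 in control replicates. The checkpoint kinase Chek1 was at 4.55, 4.32 and 5.19 in activated replicates, against 5.90, 5.89 and 5.81 in control replicates. The kinase Chek2 was at 3.71, 3.82 and 3.95 in activated replicates, against 4.61, 4.87 and 3.99 in control replicates. Hipk2 was higher and both checkpoint kinases lower on every activated array, with none past adjustment (limma, adjusted p = 0.38, 0.325 and 0.621). Of 20 genes of the apoptosis machinery 9 were higher and 11 lower, with a median of -0.07 that was -0.13 after quantile normalization, -0.12 after cyclic loess and 0.06 after median centring. At an unadjusted p under 0.05 (limma) 1 of the 20 was higher and 0 lower (5%, against 7.86% of all genes in either direction). The 3 with the smallest p were Bak1, Birc5 and Casp8. Bak1, a pore-forming protein of the outer mitochondrial membrane, differed by 1.603 ± 0.53 (SE), the survivin gene Birc5 by -1.19 ± 0.52 and the initiator caspase Casp8 by -0.74 ± 0.35.

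Muscle and cell cycle genes differed by more than the p53 pathway genes in the same arrays, with none past adjustment (limma; 1 sarcomere gene with the block). Of 28 sarcomere genes 27 were higher, with a median difference of 1.61 and list means on single arrays of 8.47 to 9.78 in activated and 6.85 to 7.88 in control cultures. Those with the smallest p were Myom2 (2.42), Actn3 (1.81) and Myom1 (2.41), and among cell cycle genes Kif15 (-2.61), Cenpf (-1.94) and Ttk (-1.95). The means of the sarcomere and cell cycle lists did not overlap between the groups, whereas the mean of the p53 pathway genes did, at 6.44 to 6.67 in activated and 6.05 to 6.51 in control cultures. Whether the differences of the p53 pathway genes follow those of the sarcomere and cell cycle genes was not tested.

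**Figure D4:**
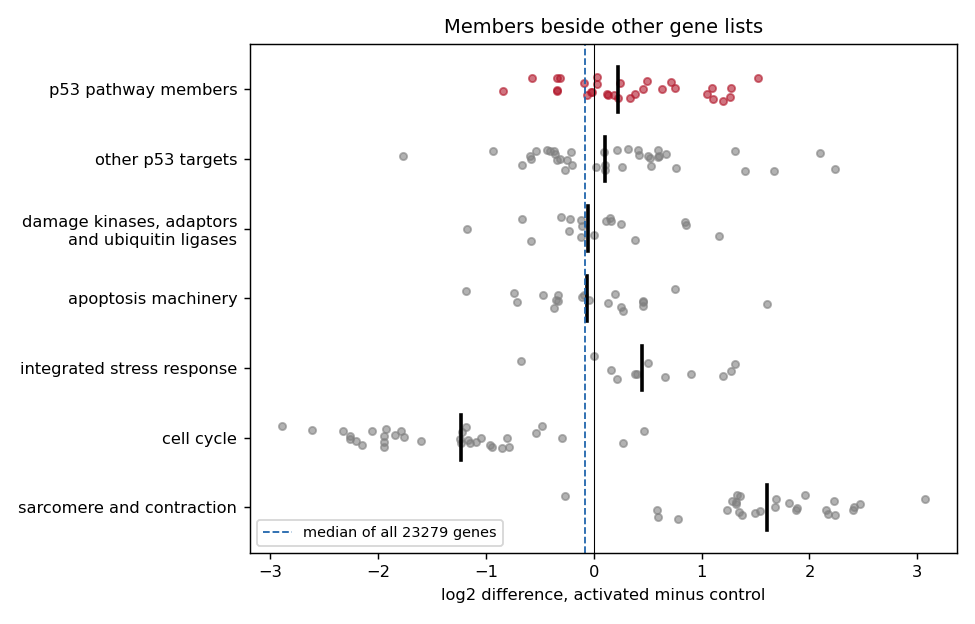
Log2 difference, activated minus control (x axis), of each measured gene (points, spread vertically for visibility) in the p53 pathway (red) and in 6 other lists (grey); black bars are list medians and the dashed line is the median of all genes. The p53 pathway median of 0.23 and that of further p53 targets, 0.10, lie between the cell cycle median of -1.24 and the sarcomere median of 1.61.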

How the data were processed

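The study's 6 arrays were analysed, 3 activated and 3 control, from 100 ng of total RNA each, with groups and replicate numbers from the sample titles. The deposited table holds log2 expression values per probe set; RMA and Partek are tools that the submitters' processing notes list without version. The step each tool served, the build and any detection calls were not given in the sources read. The platform annotation gave 1 symbol to 23281 of 24479 probe sets, several to 0 and none to 1198. For 2 symbols with more than 1 probe set the brightest was kept, which left 23279 genes.

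All these genes were fitted by group, without other terms, with limma 3.58.1 in R 4.3.3 (two-sided moderated tests, Benjamini-Hochberg adjustment over all genes, threshold 0.05, no filter on dim genes). Intervals are 95% intervals. The fit was tested on simulated data. Deviations from the group means correlated at 0.38, 0.49 and 0.45 for arrays numbered 1, 2 and 3, all above 0.1. The numbers in the titles were therefore taken to pair the arrays, and that number was added as a block in a further fit. Array SDs ranked alike by number, at 1.88, 2.12 and 1.96 in activated and 1.72, 2.01 and 1.76 in control replicates, as did the medians. The correlations were computed on deposited values only, and the part of this shared scale in them was not tested. Alternatives were quantile normalization, cyclic loess, median centring, leaving out dim genes, a trended robust prior and leaving out arrays or pairs.

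The members and the gene lists were chosen with earlier results of these data known. All members are named, and of the pathway, stress, apoptosis, cell cycle and sarcomere lists the 3 genes with the smallest p, plus Cdkn1a, Axin2 and Ctnnb1; Atf4 and Ptprc were chosen after their values were seen. The number of arrays limits the precision. Promoter sequences are from RefSeq (GRCm38.p6), matched by symbol.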

Additional observations from a re-analysis of the deposited data

How the results depend on the processing

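Of 492 recomputed member differences, 441 kept their direction and their side of the threshold, 50 (12 members) changed sign and 1 (Eda2r) passed the test. Every sign change was in a gene whose interval included 0. After quantile normalization, with or without the replicate block, Perp was at 0.16, Trp53inp1 at -0.10, Ercc5 at -0.19 and Rrm2b at -0.15. After cyclic loess Perp was at 0.16, Trp53inp1 at -0.11, Plk3 at 0.016, Ercc5 at -0.17 and Rrm2b at -0.13. Median centring, which put the median of all genes at 0.04 (-0.08 as deposited), gave Perp 0.10, Plk3 0.11, Rprm 0.064 and Zmat3 0.040. Leaving out 1 array, or 1 pair with the block, gave ranges of -0.12 to 0.69 for Ppm1d, -0.12 to 0.038 for Perp, -0.38 to 0.60 for Tnfrsf10b, -0.25 to 0.32 for Trp53inp1, -0.15 to 0.18 for Plk3, -0.21 to 0.018 for Rprm, -0.54 to 0.17 for Zmat3, -0.0058 to 0.38 for Xpc, -0.25 to 0.24 for Ercc5, -0.15 to 0.32 for Rrm2b, -0.060 to 0.33 for Tigar and -0.14 to 0.68 for Ddit4l.

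The count of members at an unadjusted p under 0.05 was 7 as deposited and 11 with the replicate block, against 7.86% and 16.6% of all genes. It was 4 of 27 (14.8%, against 10% of the 11640 genes kept) when dim genes (mean under the median, among them Fas and Sesn1) were left out. After quantile normalization or cyclic loess it was 6 higher and 1 lower (Mdm4). Of all genes, 4% were higher and 3.61% lower after quantile normalization, and 4.2% and 3.72% after cyclic loess. With median centring 8 members were higher and 0 lower, against 5.66% and 2.31% of all genes. Eda2r, Plk2 and Gadd45a were in this count under each alternative run. Members whose groups did not overlap numbered 8 as deposited (12.8% of all genes did so) and 6 after quantile normalization or cyclic loess (12.7%). Smaller groups separate more often: the count was 8 (without activated replicate 2, 16.7% of all genes) to 17 (without control replicate 2, 34.5%) without 1 array, and 17 without pair 2 (39.2%). Over all genes, 1830 had an unadjusted p under 0.05 (1034 higher, 796 lower), 3875 with the block, 3201 with quantile normalization and the block, 1166 of 11640 without dim genes and 907 (without activated replicate 2) to 3528 when arrays or pairs were left out; median centring gave 1317 higher and 537 lower. The count past adjustment was 0 as deposited, 31 with the block and 0 with the block after quantile normalization. It was 0 to 501 when arrays or pairs were left out, with 28 without activated replicate 3 and 501 in the blocked fit without pair 3. The cause of these shifts was not tested. With the replicate block no member passed an adjusted p of 0.05, as without it.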

Other observations

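Several genes of the integrated stress response, in which the factor Atf4 switches on stress genes when translation is slowed, are shared with the p53 response. Of 12 measured genes on that list 11 stood above 0 (activated minus control), Atf4 barely so, and the median log2 difference was 0.45. None passed the test (limma, smallest adjusted p = 0.256). At an unadjusted p under 0.05 (limma) 4 were higher and 0 lower, against 4.44% and 3.42% of all genes. In the 1 lower gene every activated array lay below every control array (7.4% of all genes were). With the replicate block 6 were higher and that gene was lower at this level (limma), against 9.63% and 7.01% of all genes. Atf3, a stress-induced transcription factor that p53 also switches on, was at 5.95, 6.05 and 5.51 in activated replicates 1, 2 and 3, against 4.79, 4.62 and 4.51 in control replicates, a difference of 1.196 ± 0.23 (SE). Each activated array was above each control array, and the difference stayed between 1.09 and 1.36 when any 1 array was left out. Ppp1r15a, the phosphatase subunit that ends the response, differed by 1.28 ± 0.41 and the stress protein Nupr1, which the list of further p53 targets also holds, by 1.31 ± 0.43. Atf4 itself was at 9.33, 9.83 and 9.60 in activated replicates, against 9.57, 9.60 and 9.59 in control replicates.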
